A study of Mus musculus with 4 samples.

Results

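Endoneurial fibroblasts are the connective tissue cells that lie among the axons and Schwann cells inside a nerve fascicle. In these muscle libraries they were chosen by their own detected transcripts, as cells with at least 3 of the 5 transcripts Sox9, Osr2, Abca9, Col26a1 and Trpm6. A cell also needed Dcn or Pdgfra, less than 0.1% of its UMIs (unique molecular identifiers, counted RNA molecules) from 7 tendon genes, and at most 2 of 6 perineurial genes. That rule found 394 cells among the 18153 that had more than 200 detected genes and less than 10% mitochondrial UMIs. The muscles were tibialis anterior and gastrocnemius, and the mice were males aged 2 months that carried the S100GFP-tg reporter, in which the S100B promoter drives green fluorescent protein (GFP). Cells of 4 pooled mice per genotype, wild type (WT) or Sod1 knockout (Sod1KO), were sorted into live GFP+ and GFP- fractions. Each fraction gave 1 droplet library, so there were 4 libraries, 2 mouse pools and 1 library in each group. All groups carried the reporter, the labels and methods used here do not give the Sod1 allele, and the genotype names are those of the labels.

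The endoneurium is a loose collagen and basement membrane compartment. It is enclosed by the perineurium, a sheath of flattened cells joined by tight junctions that controls what enters the fascicle. Outside it lies the epineurium, whose fibroblasts resemble the Pi16-expressing fibroblasts of other tissues. Endoneurial fibroblasts produce matrix and soluble factors around nerve fibres and are known by the transcription factors Sox9 and Osr2.

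WT GFP+ held 82 members among 4767 cells and Sod1KO GFP+ 177 among 6291, whereas WT GFP- held 5 among 1665 and Sod1KO GFP- 130 among 5430. Total counts per library ranged from 21959719 to 105954116 UMIs. A member held a median of 21112.5, 16588, 22571 and 19614.5 UMIs in the same order, against 13122, 13644, 8275 and 15273 over all cells kept. Libraries shared between 1 and 13 barcodes pairwise, at most 0.341% of a library, and 0 barcodes were members in both libraries of a pair.

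The genes of the rule chose the cells, so their levels are a description. In WT GFP+ members Sox9 was detected in 97.6% of cells, Abca9 in 98.8%, Osr2 in 68.3%, Trpm6 in 59.8% and Col26a1 in 30.5%. In Sod1KO GFP+ the shares were 87.6%, 96.6%, 74.6%, 59.9% and 37.3%. Abca9 and Sox9 therefore admitted most cells, and Col26a1 the fewest. Dcn, the small proteoglycan decorin, stood at 24472 counts per 1000000 UMIs (CPM) in WT GFP+ and 18004 CPM in Sod1KO GFP+. Krt19, Moxd1 and Lypd2, 3 perineurial genes of the rule, were each found in at most 3 members of a GFP+ library, whereas Cldn1, a tight junction claudin, was found in 17.1% and 39.0% of members.

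Some genes that did not choose the cells were at higher levels where more markers were detected, among cells that met all other criteria. Apod, apolipoprotein D, a lipid-binding protein of nerve fibroblasts, stood at 538 CPM in the 4054 cells with 0 markers, 1213 with 1 and 1728 with 2. It stood at 6183 CPM in the 252 members with 3 markers, 16062 in the 103 with 4 and 23403 in the 39 with 5. The step between 2 markers, just outside the rule, and 3, just inside it, was therefore larger than any between 0 and 2. Cxcl14, a chemokine, went from 1114 CPM at 2 markers to 2908 at 3 and 5403 at 4. Trf, transferrin, the iron carrier, went from 91.0 to 446 and 1032 CPM. Pi16 itself ran the other way, at 818 CPM with 2 markers, 365 with 3 and 54.1 with 4. Members with 3 markers thus still held transcripts of the neighbouring Pi16 class, which the rule does not bar. Median depth was 16883.5 UMIs at 2 markers and 17835.5 at 3. Of the listed endoneurial genes outside the rule, Cdon ran down from 105 CPM at 2 markers to 84.1, 43.5 and 35.9 at 3, 4 and 5, and Etv1 showed no single direction (51.3, 76.7, 83.4 and 95.9 CPM, after 80.7 at 0 and 105 at 1). Wif1, a secreted Wnt inhibitor and one of the 7 endoneurial genes listed outside the rule, was at 2.5 CPM or less at every step, so the label rests on the other markers.

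Transcripts of other cell types were present in some members. Of the 394, 79 held at least 3 of the 5 to 7 markers of another type, namely Schwann cells in 51, mural cells in 25, endothelial cells in 15, muscle in 6, red cells in 3 and leukocytes in 0. These cells numbered 19, 39, 0 and 21 in WT GFP+, Sod1KO GFP+, WT GFP- and Sod1KO GFP-. Summed Schwann markers ranged from 9.79 CPM in WT GFP- to 853 CPM in Sod1KO GFP+, and mural markers from 58.7 CPM in WT GFP- to 1242 CPM in Sod1KO GFP-. A doublet score marked 9, 20, 0 and 14 members in the same order, which were kept. Results below were also computed without the 79 cells.

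Cells that met the rule for endoneurial fibroblasts made up 1.72% of WT GFP+ cells (95% exact binomial interval 1.37 to 2.13) and 2.81% of Sod1KO GFP+ cells (2.42 to 3.25). In the GFP- fractions the shares were 0.30% in WT (0.0976 to 0.699) and 2.39% in Sod1KO (2.00 to 2.84). The difference between genotypes was 1.09 percentage points in GFP+ (0.534 to 1.64) and 2.09 in GFP- (1.55 to 2.57). The difference between sorts was 1.42 points in WT (0.899 to 1.86) and 0.419 in Sod1KO (-0.164 to 0.996), where the interval includes 0. These intervals cover counting error alone, and with 1 library per group no difference has a replicate check. Because a share of cells with several detected markers depends on depth, every cell was also thinned to 3000 UMIs, which left 13 of 4321, 33 of 5759, 0 of 1362 and 12 of 4951 cells as members. The thinned shares were 0.301%, 0.573%, 0 (up to 0.270%) and 0.242%, and 446, 532, 303 and 479 cells under 3000 UMIs were left out. The thinned genotype difference was 0.272 points in GFP+ (0.00273 to 0.534) and 0.242 in GFP- (-0.0574 to 0.423), so the GFP- difference no longer stood clear of 0. The thinned sort difference was 0.301 points in WT (-0.00690 to 0.514), where the interval now included 0, and 0.331 in Sod1KO (0.0861 to 0.583), where it did not. With at least 4 markers the Sod1KO sort difference was 0.640 points (0.304 to 0.982). With at least 2 it turned to -0.688 points (-1.62 to 0.237).

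**Figure D1:**
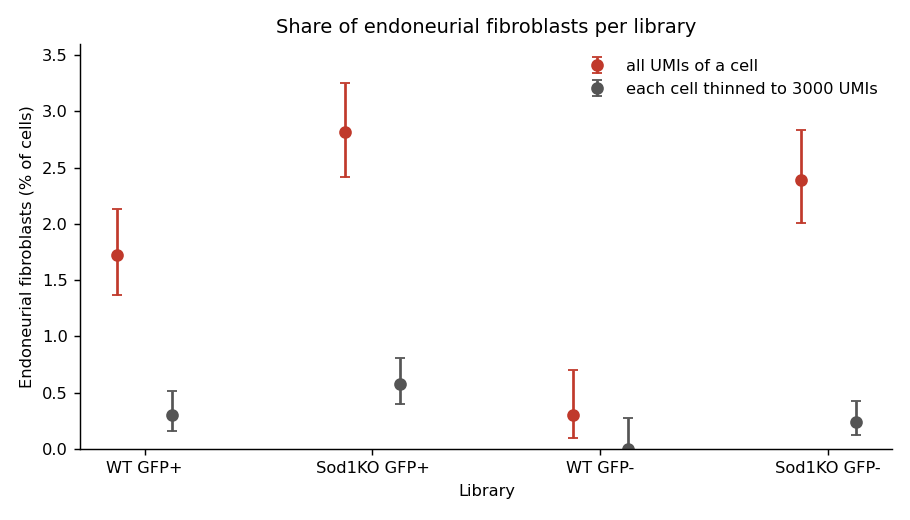
Share of endoneurial fibroblasts among cells past the filter (%, y axis) in each of the 4 libraries (x axis), from all UMIs (red) and after thinning every cell to 3000 UMIs (grey), with 95% exact binomial intervals. The WT GFP- library stood lowest at 0.30% and Sod1KO GFP+ highest at 2.81%, and all thinned shares were 0.573% or less. The WT GFP- share rests on 5 cells that met the rule, 4 in subcluster 4 and 1 in subcluster 3.

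The members were next set against the 3 stromal classes most like them in the same libraries. Perineurial cells had at least 3 of the 6 perineurial genes (565 cells), Pi16 fibroblasts had at least 3 of Pi16, Dpp4, Sema3c, Cd55 and Pcolce2 with at most 1 endoneurial marker (540 cells), and 633 cells were other Pdgfra stromal cells. Counts were summed per class and library, and edgeR compared the classes within the 3 libraries that held at least 10 members, WT GFP+, Sod1KO GFP+ and Sod1KO GFP-. A gene was called at a Benjamini-Hochberg adjusted p under 0.05 and a 2-fold difference, and genes that defined a class were left out. These p-values measure the spread between 3 libraries from 2 mouse pools, which may be technical. In the text, level is CPM in the order WT GFP+, Sod1KO GFP+, Sod1KO GFP-, and log2 fold change is member over class with its SE (n = 3 libraries).

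Against perineurial cells 890 of 11802 genes were higher in endoneurial fibroblasts (7.54%) and 722 lower (6.12%). Against Pi16 fibroblasts 331 of 11613 were higher (2.85%) and 347 lower (2.99%), and against other Pdgfra stromal cells 320 of 11262 were higher (2.84%) and 519 lower (4.61%). The comparisons share the member libraries and are not independent. WT GFP+ weighed most on the Pi16 comparison, where 50 higher and 17 lower genes were called without it. Without Sod1KO GFP+ that comparison gave 171 and 170 calls, and without Sod1KO GFP- 513 and 618. The perineurial comparison gave 432 and 334 calls without WT GFP+, and the other Pdgfra comparison 99 and 224 without Sod1KO GFP-. Of the listed or leading genes that were called, 86 of 107 against Pi16 fibroblasts and 58 of 175 against perineurial cells lost the call without WT GFP+, and 32 of 105 and 16 of 175 without Sod1KO GFP+. Against other Pdgfra cells 54 of 119 lost it without Sod1KO GFP-. None of them changed direction. The other Pdgfra cells were shallow, at a median of 4810 to 8360.5 UMIs per library, and carried endothelial markers (5 of 5 lower in members), mural markers (3 of 5 lower) and leukocyte markers (2 of 4 lower). Their part in that comparison was not tested, and 208 higher and 187 lower calls were made once cells with 3 or more markers of another type were dropped from every class. That step left 39, 77, 3 and 82 of the 126, 313, 15 and 111 perineurial cells in WT GFP+, Sod1KO GFP+, WT GFP- and Sod1KO GFP-, and 91, 146, 12 and 192 of the 101, 166, 51 and 222 Pi16 fibroblasts. Against those perineurial cells 932 genes were higher and 716 lower, and against those Pi16 fibroblasts 430 and 406.

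**Figure D2:**
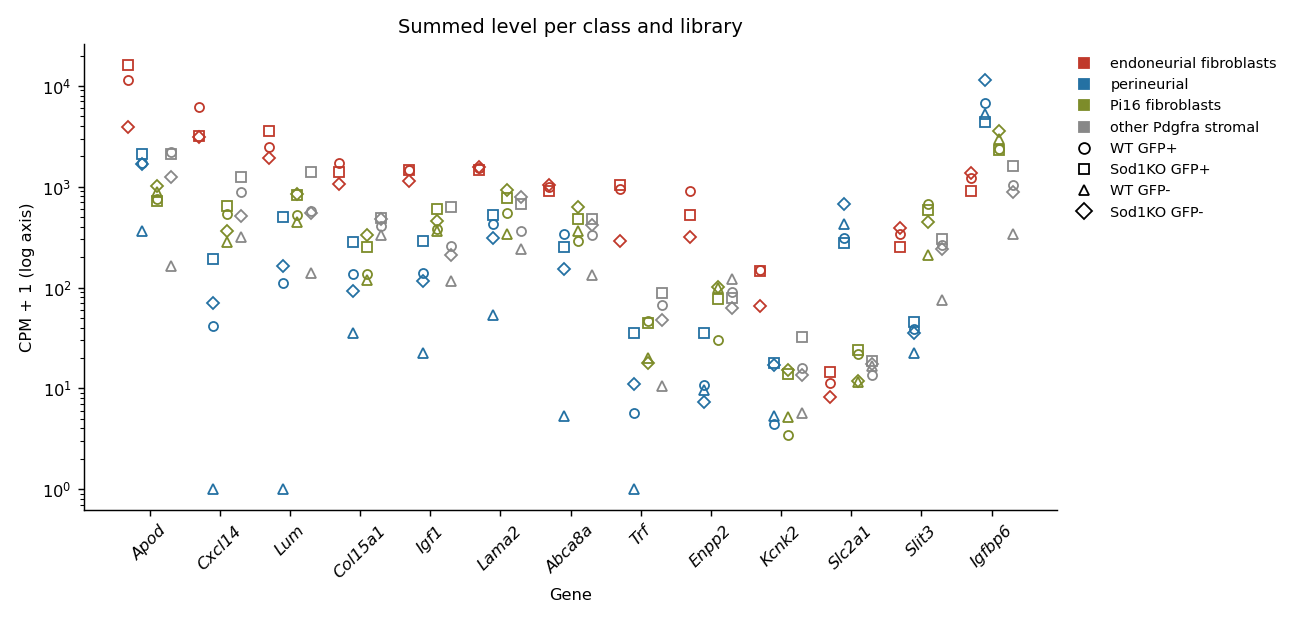
Levels of 13 genes (CPM + 1, log axis) in endoneurial fibroblasts and the 3 comparison classes (colours), 1 point per library (marker shapes, WT GFP- members not drawn). Apod, Cxcl14, Trf and Kcnk2 of the members lay above all 3 classes in every library drawn, Slc2a1 marked the perineurial class, and Igfbp6 was lower in members than in perineurial and Pi16 cells.

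Apod summed over the members of a library separated them from all 3 classes, though not in every subcluster of members. Its level was 11361, 16032 and 3878 CPM in members against 761, 726 and 1015 CPM in Pi16 fibroblasts and 1723, 2133 and 1692 CPM in perineurial cells. The lowest member library, Sod1KO GFP-, lay above the highest library of either class. In subclusters 3, 4 and 9 of the members, described below, Apod stood at 1028, 1557 and 339 CPM, under all 3 perineurial values. The log2 fold change was 3.38 ± 0.49 over Pi16 fibroblasts (edgeR adjusted p = 0.0152) and 2.38 ± 0.37 over perineurial cells (edgeR adjusted p = 0.00982). Of 6 listed endoneurial genes outside the rule that were tested, 4 were higher and 1 lower against Pi16 fibroblasts (median log2 1.58, all genes 0.02). Against perineurial cells 4 were higher and 0 lower (median 1.32, all genes -0.05). Plxdc1, a membrane receptor of the plexin-domain type, was at 52.2, 70.0 and 36.6 CPM against 15.7, 21.1 and 10.8 CPM in Pi16 fibroblasts (1.66 ± 0.15, edgeR adjusted p = 0.00851). Cdon, a Hedgehog co-receptor, was the gene lower than in Pi16 fibroblasts (-1.12 ± 0.25, edgeR adjusted p = 0.0444) and higher than in perineurial cells (1.09 ± 0.13, edgeR adjusted p = 0.00440), a pair of calls that ended at 0.0512 with relative log expression factors and 0.123 with at least 4 markers. Without WT GFP+, 0 of the 5 Pi16 calls and 2 of the 4 perineurial calls (Plxdc1 and Apod ended at 0.0561 and 0.0856) were kept, the others in the same direction at adjusted p of 0.0609 to 0.241 for Pi16.

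Trf was higher than in both neighbouring classes. It was at 952, 1029 and 288 CPM in endoneurial fibroblasts, 45.3, 43.1 and 16.8 CPM in Pi16 fibroblasts and 4.67, 34.4 and 10.0 CPM in perineurial cells. Every member library exceeded every library of both classes. Its log2 fold change was 4.29 ± 0.15 over Pi16 fibroblasts (edgeR adjusted p = 0.000353) and 5.68 ± 0.57 over perineurial cells (edgeR adjusted p = 0.00259), and it was called with each library left out. Enpp2, autotaxin, the secreted enzyme that makes lysophosphatidic acid, was at 908, 524 and 318 CPM against 9.77, 34.2 and 6.28 CPM in perineurial cells (5.30 ± 0.52, edgeR adjusted p = 0.00253). Hsd11b1, the enzyme that regenerates active glucocorticoid, was at 530.1, 351 and 348 CPM against 1.70, 8.47 and 5.86 CPM in perineurial cells (6.22 ± 0.48, edgeR adjusted p = 0.00131). Both remained called against perineurial cells with each library left out. In the lipid handling list 2 of 14 were higher and 0 lower against Pi16 fibroblasts (median -0.02), 3 and 0 against perineurial cells (median 0.36), and 1 and 5 against other Pdgfra cells (median -0.06).

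The ABCA8 subfamily of lipid transporters is encoded in 1 array on mouse chromosome 11, and Abca9 of the rule is one of its members. On GRCm38 the order is Abca8b (chr11:109932206-109996274), Abca8a (chr11:110025634-110097580), Abca9 (chr11:110100749-110168274), Abca6 (chr11:110174638-110251776) and Abca5 (chr11:110269369-110337723). Abca8a stood at 998, 901 and 1031 CPM in members, 288, 478 and 632 CPM in Pi16 fibroblasts and 341, 251 and 150.3 CPM in perineurial cells. Abca8b stood at 476, 407 and 406 CPM against 150.2, 135 and 254 CPM in Pi16 fibroblasts and 173, 109 and 54.0 CPM in perineurial cells. For both genes the member libraries did not overlap those of the classes. Whether the counting split reads between these 2 related genes was not tested. Against perineurial cells 4 of the 4 neighbours tested were higher (median log2 2.15), with Abca8a at 2.14 ± 0.24 (edgeR adjusted p = 0.00364) and Abca6 at 2.28 ± 0.16 (edgeR adjusted p = 0.00118). Against Pi16 fibroblasts 2 of 4 were higher, Abca8a at 1.05 ± 0.22 (edgeR adjusted p = 0.0364) and Abca8b at 1.23 ± 0.21 (edgeR adjusted p = 0.0227). Abca6 was at 0.89 ± 0.26 and Abca5 at -0.48 ± 0.22, neither called. The Pi16 calls ended without WT GFP+ (0.101 and 0.152) and without Sod1KO GFP+ (0.0798 and 0.0854), in the same direction, and that of Abca8a also after ambient RNA was subtracted (0.0527). The perineurial call of Abca5 ended without WT GFP+ (0.109) and with at least 4 markers (0.195).

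Since Abca9 chose the cells and its neighbour Abca8a moved with it, a window of 250 bases before an annotated promoter start is shown for each (GRCm38.p6, minus strand). These starts are not the outer ends of the spans given above. The windows of Abca8a and Abca8b lie inside their spans, and that of Abca9 lies partly inside. Bases before the outer ends of the Abca8a and Abca8b spans were therefore not searched. The letters are in lower case because no motif match was found in them.
Abca8a, chr11:110095938-110096187: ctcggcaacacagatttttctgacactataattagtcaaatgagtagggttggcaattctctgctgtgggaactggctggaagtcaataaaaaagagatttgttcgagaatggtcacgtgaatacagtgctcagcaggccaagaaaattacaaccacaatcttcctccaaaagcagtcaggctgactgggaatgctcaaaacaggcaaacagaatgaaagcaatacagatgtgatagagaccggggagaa
Abca9, chr11:110168154-110168403: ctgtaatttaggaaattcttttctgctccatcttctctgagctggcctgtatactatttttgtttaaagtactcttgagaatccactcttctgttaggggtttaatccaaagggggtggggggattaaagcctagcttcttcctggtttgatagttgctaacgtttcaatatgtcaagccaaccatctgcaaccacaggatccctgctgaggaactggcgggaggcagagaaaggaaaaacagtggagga
The letters ACAATG or ACAAAG, the core bound by Sox proteins, were searched on both strands. They had 0 matches in the windows of Abca8a, Abca9, Abca8b and Abca5, while 25.2% of the 32851 windows in the table held one.

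Endoneurial fibroblasts carried more basement membrane transcripts than each of the other classes. Of 13 basement membrane genes tested, 6 were higher and 1 lower against Pi16 fibroblasts (median log2 0.96), 9 higher and 0 lower against perineurial cells (median 1.19), and 7 higher and 0 lower against other Pdgfra cells (median 1.15). Col4a1, a chain of type IV collagen, the network-forming collagen of basement membranes, was at 1791, 1253 and 1885 CPM in members. It was at 477, 563 and 936 CPM in Pi16 fibroblasts (1.28 ± 0.19, edgeR adjusted p = 0.0152) and 575, 547 and 731 CPM in perineurial cells (1.49 ± 0.13, edgeR adjusted p = 0.00191). Col18a1, the parent chain of endostatin, was at 370.0, 459 and 259.7 CPM against 44.6, 87.8 and 64.3 CPM in Pi16 fibroblasts (2.38 ± 0.21, edgeR adjusted p = 0.00776). Member libraries lay above all Pi16 libraries for both genes. Lama2, the laminin chain of muscle and Schwann cell basement membranes, was at 1515, 1453 and 1559 CPM against 422, 520.1 and 310.2 CPM in perineurial cells (1.97 ± 0.17, edgeR adjusted p = 0.00189) and was not called against Pi16 fibroblasts (0.96 ± 0.16). Lamb2 was the member of the list lower than in Pi16 fibroblasts (-1.26 ± 0.15, edgeR adjusted p = 0.0102). Without WT GFP+, 1 of the 7 Pi16 calls, Col18a1, and 5 of the 9 perineurial calls were kept, the others in the same direction (adjusted p 0.0636 to 0.118 and 0.0545 to 0.160). Without Sod1KO GFP-, 3 of the 7 calls against other Pdgfra cells were kept (others 0.0516 to 0.103).

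Col15a1, a collagen that bridges basement membranes to the fibrillar matrix, showed the same separation. It was at 1722, 1410.2 and 1071 CPM in members, 136, 253 and 329 CPM in Pi16 fibroblasts and 135, 279.8 and 90.4 CPM in perineurial cells. The log2 fold changes were 2.52 ± 0.35 (edgeR adjusted p = 0.0140) and 3.27 ± 0.29 (edgeR adjusted p = 0.00189). Col28a1, a collagen of peripheral nerve, was at 20.4, 93.7 and 32.3 CPM against 2.41, 8.94 and 0.276 CPM in Pi16 fibroblasts (3.81 ± 0.46, edgeR adjusted p = 0.0104). Of 17 collagens, 3 were higher and 1 lower against Pi16 fibroblasts (median 0.16) and 12 higher and 1 lower against perineurial cells (median 1.63). The fibrillar chain Col3a1 was at 5549, 6798 and 7228 CPM against 1283, 1762 and 1795 CPM in perineurial cells (2.11 ± 0.11, edgeR adjusted p = 0.000976), while against Pi16 fibroblasts it was -0.54 ± 0.13 and not called. Lum, the small proteoglycan lumican, was at 2466, 3526 and 1920.2 CPM in members, 523, 826 and 855 CPM in Pi16 fibroblasts and 110.4, 499.97 and 162 CPM in perineurial cells, with no overlap. Without WT GFP+, 0 of the 4 Pi16 collagen calls (0.0566 to 0.165), not that of Lum (0.0827), and 12 of the 13 perineurial collagen calls were kept.

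Elastic fibre genes went the other way against Pi16 fibroblasts. Of 12 tested, 7 were lower and 1 higher (median -1.13), whereas 6 were higher and 1 lower against perineurial cells (median 1.27). Eln, elastin, was at 56.2, 63.2 and 84.5 CPM against 495, 462 and 188 CPM in Pi16 fibroblasts (-2.46 ± 0.39, edgeR adjusted p = 0.0186). Fbn2, fibrillin-2, a microfibril protein, was the exception at 15.9, 112 and 37.0 CPM against 0, 4.06 and 4.69 CPM (3.91 ± 0.44, edgeR adjusted p = 0.0102). Of 11 small proteoglycan and hyaluronan genes, 1 was higher and 4 lower against Pi16 fibroblasts (median -0.22), and of 13 matrix proteases and inhibitors 0 were higher and 3 lower (median -0.47). Without WT GFP+ none of these 16 Pi16 calls was kept (0 of 8, 0 of 5 and 0 of 3), at adjusted p of 0.0636 to 0.214 in the same direction. Without Sod1KO GFP+ 6 of the 8 elastic fibre calls were kept, and that of Eln ended at 0.0510.

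**Figure D3:**
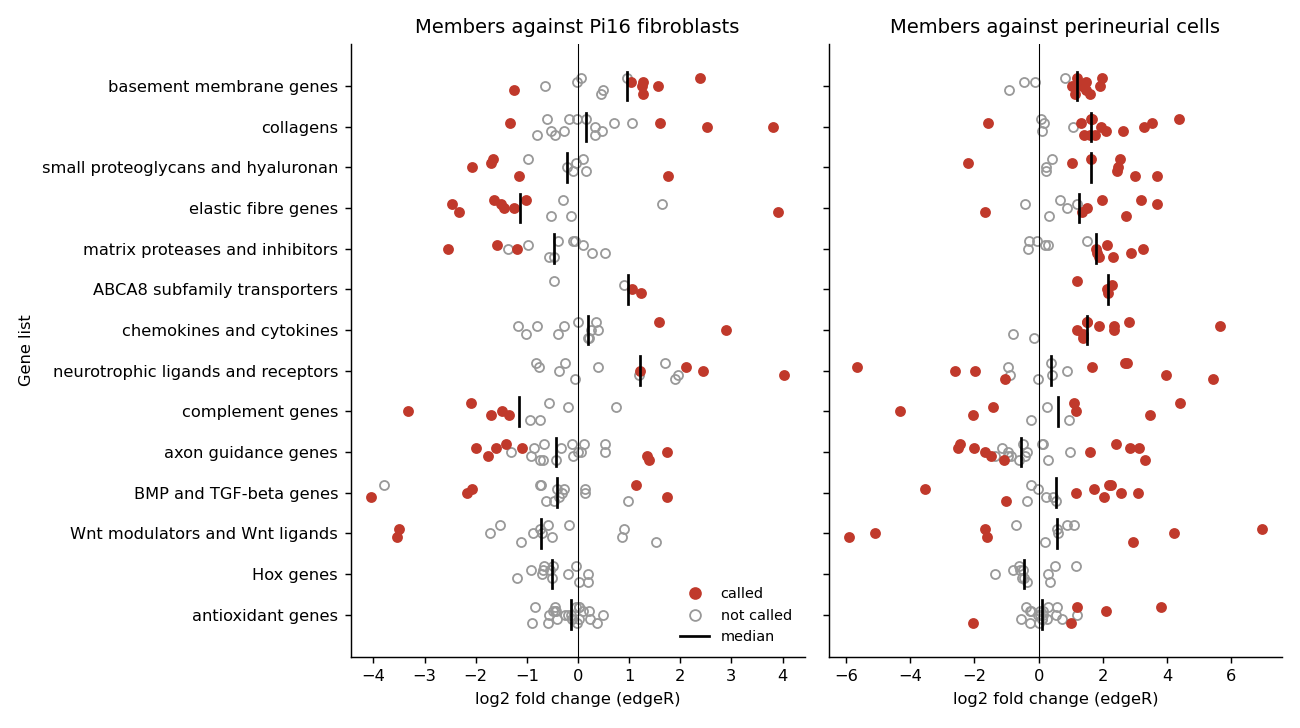
Log2 fold change of each tested gene (points) in 14 gene lists (rows) for endoneurial fibroblasts over Pi16 fibroblasts and over perineurial cells (panels), with called genes filled red, others open grey and the list median as a black bar. Basement membrane genes lay mostly above 0 in both panels (medians 0.96 and 1.19), and elastic fibre genes lay on opposite sides (medians -1.13 and 1.27).

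The chemokine Cxcl14 was higher than in both neighbours. It was at 6123, 3207 and 3124 CPM in endoneurial fibroblasts, 540.0, 645 and 366 CPM in Pi16 fibroblasts and 40.8, 189 and 68.7 CPM in perineurial cells. Each member library was above every library of both classes, and the call held with each library left out in both comparisons (2.89 ± 0.23, edgeR adjusted p = 0.00624, and 5.64 ± 0.65, edgeR adjusted p = 0.00380). Ccl11, eotaxin, was at 972, 905 and 682 CPM against 178, 283 and 364 CPM in Pi16 fibroblasts (1.59 ± 0.28, edgeR adjusted p = 0.0229, which ended at 0.101 without WT GFP+ and 0.0667 without Sod1KO GFP+). Of 13 chemokine and cytokine genes 2 were higher and 0 lower against Pi16 fibroblasts (median 0.20), and of 12 tested against perineurial cells 10 were higher and 0 lower (median 1.5), 5 of them also without WT GFP+ (others 0.0715 to 0.202).

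The insulin-like growth factor axis was shifted at ligand and binding protein. Igf1, the ligand, was at 1462, 1474 and 1136 CPM in members, 380.1, 599 and 456 CPM in Pi16 fibroblasts and 139, 287 and 114 CPM in perineurial cells. Igfbp6, a binding protein, was at 1213, 900.1 and 1380.1 CPM in members, below 2345, 2307 and 3599 CPM in Pi16 fibroblasts and 6769, 4371 and 11356 CPM in perineurial cells. Member libraries overlapped with neither class for either gene. Igf1 was called higher (1.44 ± 0.16, edgeR adjusted p = 0.00992, and 3.11 ± 0.23, edgeR adjusted p = 0.00131). Igfbp6 was called lower (-1.31 ± 0.12, edgeR adjusted p = 0.00851, and -2.51 ± 0.19, edgeR adjusted p = 0.00131). All 4 calls held with each library left out. Igfbp5 was also lower than in Pi16 fibroblasts (-2.30 ± 0.32, edgeR adjusted p = 0.0137, 0.115 without WT GFP+). In the list of 9, 1 was higher and 3 lower against Pi16 fibroblasts (median -0.24) and 3 higher and 2 lower against perineurial cells (median 0.86).

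Neurotrophic genes were higher in part. Of 14 tested against Pi16 fibroblasts 4 were higher and 0 lower (median 1.20), and of 15 against perineurial cells 5 were higher and 4 lower (median 0.39). Mdk, midkine, was at 257, 303 and 181 CPM against 33.2, 76.4 and 54.1 CPM in Pi16 fibroblasts (2.11 ± 0.24, edgeR adjusted p = 0.0102) and was the one of the 4 kept without WT GFP+ (others 0.0636 to 0.115). Ngfr, the p75 neurotrophin receptor, was at 35.2, 40.2 and 11.2 CPM against 0.603, 1.63 and 1.66 CPM in Pi16 fibroblasts (4.03 ± 0.46, edgeR adjusted p = 0.0102) and was not called against perineurial cells (-0.01 ± 0.37). Schwann cells also express Ngfr, and 2 of the 3 Schwann markers tested against Pi16 fibroblasts were higher in members, with Sox10 at 36.3, 40.2 and 3.63 CPM against 3.02, 5.69 and 0 CPM. Their part in the Ngfr value was not tested. Ret, the receptor of the glial-derived factor family, was at 62.4, 36.4 and 56.2 CPM against 0, 0.694 and 3.35 CPM in perineurial cells (5.42 ± 0.53, edgeR adjusted p = 0.00249).

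Axon guidance genes pointed both ways. Against Pi16 fibroblasts 3 of 23 were higher and 5 lower (median -0.43), and against perineurial cells 5 of 24 were higher and 6 lower (median -0.56). Slit3, a secreted repellent, was at 342, 254 and 389.9 CPM against 37.8, 44.8 and 34.7 CPM in perineurial cells (3.13 ± 0.21, edgeR adjusted p = 0.00118), and in Pi16 fibroblasts it was at 667, 588 and 444 CPM (-0.86 ± 0.21, not called). Efna5, an ephrin ligand, was lower than in Pi16 fibroblasts (-2.0 ± 0.14, edgeR adjusted p = 0.00483) and perineurial cells (-2.01 ± 0.16, edgeR adjusted p = 0.00144), at 32.9, 37.3 and 34.1 CPM against 115 CPM or more in each of their libraries. Without WT GFP+, Efna5 alone of the 8 Pi16 calls was kept (others 0.0690 to 0.143), and without Sod1KO GFP+ 2 of 8 were kept (others 0.0514 to 0.0995).

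Bone morphogenetic protein (BMP) and Wnt genes were called in both directions against perineurial cells. Of 15 BMP and TGF-beta genes 7 were higher and 2 lower against perineurial cells (median 0.53), and of 17 against Pi16 fibroblasts 2 were higher and 3 lower (median -0.41). Bmp5, a ligand, was at 91.4, 86.5 and 74.4 CPM against 29.7, 18.6 and 19.7 CPM in perineurial cells (2.02 ± 0.18, edgeR adjusted p = 0.00185) and 14.5, 27.2 and 29.2 CPM in Pi16 fibroblasts (1.73 ± 0.25, edgeR adjusted p = 0.0148, 0.0680 without WT GFP+). Dkk2, a secreted Wnt antagonist, was at 149.8, 64.4 and 109 CPM against 11, 2.36 and 7.12 CPM in perineurial cells (4.22 ± 0.25, edgeR adjusted p = 0.00110). Wnt6, a ligand, was at 5.68, 10.9 and 2.54 CPM against 241, 199.5 and 261 CPM there (-5.09 ± 0.45, edgeR adjusted p = 0.00189). Of 13 Wnt genes 3 were higher and 4 lower against perineurial cells (median 0.56), and of 14 against Pi16 fibroblasts 0 were higher and 2 lower (median -0.72), neither kept without WT GFP+ (0.0872 and 0.186).

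Complement genes were lower than in Pi16 fibroblasts, with 5 of 10 lower and 0 higher (median -1.15). C2, a component of the classical pathway, was at 7.95, 12.1 and 13.4 CPM in members against 133, 118 and 82.2 CPM in Pi16 fibroblasts and 192, 149.7 and 445 CPM in perineurial cells. The call held with each library left out (-3.32 ± 0.27, edgeR adjusted p = 0.00624, and -4.32 ± 0.32, edgeR adjusted p = 0.00130). C3, the central component, was at 361, 274 and 179 CPM against 31.0, 24.0 and 21.8 CPM in perineurial cells (3.47 ± 0.18, edgeR adjusted p = 0.000976), but with at least 4 markers the direction turned to -0.53 (edgeR adjusted p = 0.341). A group of 21 members with 0% at 4 or 5 markers held C3 at 2258 CPM. Without WT GFP+, C2 alone of the 5 Pi16 calls was kept (others 0.0636 to 0.132). Against perineurial cells 4 of 10 complement genes were higher and 3 lower (median 0.60).

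Of 21 mesenchymal transcription factors 6 were higher and 2 lower against perineurial cells (median 0.76). The 2 lower were Nr2f2 and Foxc1, regulators of mesenchymal and vascular development (-2.99 ± 0.41, edgeR adjusted p = 0.00651, and -2.45 ± 0.27, edgeR adjusted p = 0.00353). Osr1, the paralog of the rule's Osr2, was higher than in perineurial cells (2.75 ± 0.35, edgeR adjusted p = 0.00528) and lower than in Pi16 fibroblasts (-1.75 ± 0.31, edgeR adjusted p = 0.0228). Of 22 such factors 3 were higher and 3 lower against Pi16 fibroblasts (median 0.17), and of 13 Hox genes 0 were called (median -0.50). Slc2a1, the glucose transporter of the blood-nerve barrier, was at 10.2, 13.7 and 7.25 CPM in members against 312, 277 and 678 CPM in perineurial cells (-5.13 ± 0.46, edgeR adjusted p = 0.00189). Perp, a junction protein, was at 0.568, 2.49 and 6.89 CPM against 99.8, 63.7 and 224 CPM (-5.12 ± 0.33, edgeR adjusted p = 0.00117). Kcnk2, a background potassium channel, was instead at 148, 144 and 64.6 CPM in members against 3.40, 16.8 and 15.9 CPM in perineurial cells (3.35 ± 0.55, edgeR adjusted p = 0.0108) and 2.41, 13.0 and 14.3 CPM in Pi16 fibroblasts (3.29 ± 0.51, edgeR adjusted p = 0.0167). Without WT GFP+ the calls of Nr2f2 against perineurial cells (0.0642), and of Osr1 (0.146), Kcnk2 (0.0670) and all 6 mesenchymal factors against Pi16 fibroblasts (0.0956 to 0.201) were lost, in the same direction. Without Sod1KO GFP+ 1 of those 6 was kept.

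The genes of largest fold change are named here whatever their list. Col9a2, a chain of type IX collagen, had 517 UMIs in members (110.1, 69.4 and 36.3 CPM) and 0 in Pi16 fibroblasts, a difference of at least 173-fold against a floor of 3 UMIs over the class. Gria1, a glutamate receptor subunit, had 377 UMIs (88.5, 47.9 and 24.3 CPM) and 0, at least 126-fold. Dlk1, a Notch-related ligand, was at 245, 147 and 57.3 CPM against 0, 2.03 and 1.93 CPM (6.19 ± 0.51, edgeR adjusted p = 0.00671). Sbsn, suprabasin, was at 22.7, 14 and 25 CPM against 308, 244 and 194 CPM in Pi16 fibroblasts (-3.67 ± 0.25, edgeR adjusted p = 0.00395). Reln (305 UMIs against 2) was 153-fold higher than in Pi16 fibroblasts in summed UMIs, with a counting interval of 41.9 to 1267. Its libraries were uneven at 21.0, 78.1 and 6.17 CPM, and the edgeR log2 fold change of 6.55 ± 0.70 moved to 4.62 without Sod1KO GFP+ and 9.68 without WT GFP+. Other leaders higher than in Pi16 fibroblasts were Nipal1, Grin2b, Smim41, Cdkn2b, Saa1 and Trf, and those lower included Dmkn, Gabra2, Bmp3, Krtdap, Hbb-bt, Cpz, Sfrp4 and Wnt2. Without WT GFP+, 13 of the 20 leaders kept the call, and those that did not (0.0565 to 0.186) included Cdkn2b, Dmkn, Krtdap, Hbb-bt, Sfrp4 and Wnt2. Saa1 and the haemoglobin genes have near-identical copies and are uncertain. Against perineurial cells the leaders also included Sfrp2, Ccbe1, Sphkap and Thrsp (higher) and Pcp4, Spink1, Cldn22, Asic2, Wnt10a, Ocln, Ctxn3, Hcn4 and Abcb1a (lower), and Hcn4 ended at 0.0590 without WT GFP+. Sfrp2 was found in 31 members, and 3 cells held 50% of its 594 UMIs.

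Further lists differed in how many of their genes were called. Of 24 antioxidant genes 0 were called against Pi16 fibroblasts (median -0.13), and 4 were higher and 1 lower against perineurial cells (median 0.12). Among the 4 was Gpx3, the secreted glutathione peroxidase, at 776, 382 and 497 CPM against 23.4, 22.5 and 110.1 CPM in perineurial cells (3.83 ± 0.58, edgeR adjusted p = 0.00894, 0.0513 without WT GFP+). Of 15 immediate early and heat shock genes 0 were lower and 1 was higher than in Pi16 fibroblasts, Jun (1.25 ± 0.15, edgeR adjusted p = 0.0104, 0.0720 without WT GFP+). Against perineurial cells 1 of the 15 was higher and 2 were lower (median 0.04). Of 14 interferon and MHC class I genes 0 were higher and 2 lower against Pi16 fibroblasts (median -0.53), and 0 were called against perineurial cells (median -0.18). Fibro-adipogenic genes were lower in 4 of 7 against Pi16 fibroblasts (median -1.48, 0 kept without WT GFP+ at 0.0920 to 0.125) and higher in 5 of 7 against perineurial cells (median 2.75). Erythroid markers were lower in 2 of 4 against Pi16 fibroblasts (median -3.05). These 2, Hba-a1 and Hbb-bt, were not called with DESeq2 (DESeq2 adjusted p = 0.110 and 0.290). Without cells holding 3 or more markers of another type, Hba-a1 stood at a log2 fold change of -0.05.

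The endoneurial fibroblasts were not uniform. Clustering the members gave 10 subclusters of 10 to 82 cells, which stay unnamed, and their leading genes are a description. Subcluster 1, with 82 cells, held Hsd11b1 at 983 CPM against 268 CPM in the other members, Trf at 1836 CPM and Cxcl14 at 8920 CPM, and 58.5% of its cells had 4 or 5 markers. Subcluster 6 (31 cells, 83.9% with 4 or 5 markers) held Gria1 at 320 CPM against 23.3 CPM in the rest and the highest Cxcl14 at 10440 CPM. Subcluster 5 (38 cells) held the highest Apod, 39486 CPM, and Spp1, osteopontin, at 563 CPM against 16.8 CPM. These groups with many rule markers thus differed in which secreted products were high.

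Other subclusters carried genes of neighbouring fibroblasts. Subcluster 9 (21 cells, 0% with 4 or 5 markers) held Pi16 at 1925 CPM, C3 at 2258 CPM and Apod at 339 CPM, the lowest Apod of the 10. Subcluster 3 (49 cells, 8.16%) held Inmt, a methyltransferase of muscle fibroblasts, at 194 CPM against 15.4 CPM. Subcluster 4 (42 cells, 11.9%) held Prg4, lubricin, at 864 CPM against 34.4 CPM and Clu, clusterin, at 415 CPM against 9.17 CPM. Subcluster 2 (71 cells) held Bdnf, the brain-derived neurotrophic factor, at 100.4 CPM against 14.3 CPM and Timp1, a metalloproteinase inhibitor, at 283 CPM.

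Subcluster 7 (28 cells) had 3 or more Schwann markers in 28 of 28 cells, and a doublet score marked 20 of them. Subcluster 8 (22 cells) held Acta2, smooth muscle actin, at 5506 CPM, and 20 of its cells were marked by the doublet score. Subcluster 10 (10 cells) held the cell cycle gene Top2a at 1123 CPM against 8.49 CPM. Across the 10, Apod ranged from 339 to 39486 CPM, while Abca9 ranged from 102 to 469 CPM and Sox9 from 60.0 to 409 CPM. The library make-up differed, since subcluster 1 had 29 WT GFP+ and 39 Sod1KO GFP+ cells, but subcluster 2 had 3 and 41, and subcluster 5 had 8 and 28. The 10 genes of largest overdispersion over members were Sfrp2, Acta2, Tagln, Rgs5, Myh11, Ccl2, Sncg, Fabp4, Cyp2f2 and Clu, of which 6 stayed in the top 10 after thinning to 3000 UMIs. Acta2, Tagln, Myh11 and Fabp4 led subcluster 8, Sfrp2 subcluster 9 and Clu subcluster 4.

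**Figure D4:**
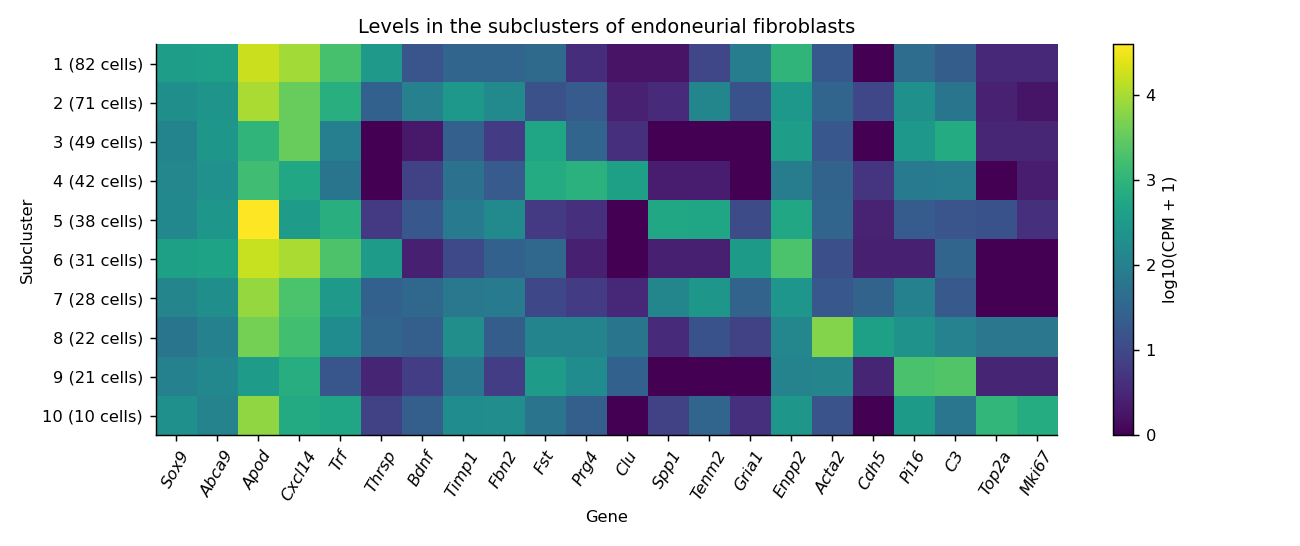
Heat map of log10(CPM + 1) for 22 genes (columns) in the 10 subclusters of endoneurial fibroblasts (rows, cell numbers given). Sox9 and Abca9, the rule genes drawn, helped choose the cells and were present across all rows. Acta2 marked subcluster 8, Pi16 and C3 subcluster 9 and Top2a subcluster 10.

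Between genotypes the GFP+ members could be compared as 82 WT and 177 Sod1KO cells, with 1 library each and therefore no test. Of 10463 genes with at least 30 UMIs, 368 were 2-fold or more higher in Sod1KO (3.52%) and 267 lower (2.55%), with a median log2 ratio of -0.01. The intervals given are 95% exact counting intervals and cover counting error only. Sod1 itself was at 92.5 CPM in WT GFP+ and 99.3 CPM in Sod1KO GFP+, a log2 ratio of 0.10 (-0.17 to 0.38). The reads are 3' tags, so these counts check neither genotype. The genes of largest ratio came from few cells, since 1 cell held 97.5% of the Sod1KO UMIs of Hba-a2 and 99.1% of those of Hbb-bs. The same rule named Hba-a1, Hbb-bt, Lgals7, Hist1h2ap, Actg2, Plxna4, Lrrtm4 and Hist1h1b as higher and Rorb, Mybpc1, C1qtnf3, Car10, Grm7, Ism1, Ctla2a, Lyz2, Stmn2 and Sfrp2 as lower. A rule added after these values were seen kept genes detected in at least 20% of the members of the higher library, with no cell holding over 20% of the UMIs and the 2-fold difference also under 3 other settings, which left 61 higher and 39 lower.

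Those 61 held Fbn2, Col28a1, Timp1 and Col8a1 of the matrix lists, whose medians lay at or below 0. Of 17 collagens 2 were 2-fold higher and 1 lower (median -0.01), of 12 elastic fibre genes 1 and 0 (median -0.38, interval below 0 in 7), and of 12 small proteoglycan and hyaluronan genes 0 and 1 (median -0.28). Fbn2 went from 15.9 CPM in WT to 112 CPM in Sod1KO, a log2 ratio of 2.82 (2.26 to 3.43), and its share of cells from 17.1% to 48.6%. Over all GFP+ cells it went from 19.6 to 39.5 CPM. Col28a1 went from 20.4 to 93.7 CPM (2.20, 1.70 to 2.74), while over all GFP+ cells it was 46.5 and 42.7 CPM. Timp1 went from 21.6 to 82.5 CPM (1.94, 1.44 to 2.47) and from 69.2 to 144 CPM over all GFP+ cells. Col8a1, a short-chain network collagen, went from 125 to 249.9 CPM (1.00, 0.78 to 1.22). Within subcluster 1, where both libraries had cells, the ratios were 4.88 for Fbn2 (2.31 to 10.2), 1.83 for Col28a1 (0.76 to 3.06), 2.15 for Timp1 (0.75 to 3.88) and 1.5 for Col8a1 (1.08 to 1.94). Fbn2 and Timp1 had 39 and 40 UMIs over all 82 cells of that subcluster, so their ratios there rest on few counts.

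Other genes lost the difference within subcluster 1. Tgfbi, a matrix adhesion protein induced by transforming growth factor beta, went from 141 to 464 CPM over all members (1.72, 1.52 to 1.92) but had a ratio of 0.22 within it (-0.27 to 0.71). Adamts4, an aggrecanase, went from 55.6 to 171 CPM (1.62), with 0.14 within it (-0.52 to 0.81). Klf5, a transcription factor, was at 2.01 over all members and -0.55 within it (-2.60 to 1.43). The part that the uneven subclusters had in these ratios was not tested. Srxn1, sulfiredoxin, an oxidant-responsive repair enzyme, went from 18.7 to 46.1 CPM (1.30, 0.75 to 1.89), and its interval within subcluster 1 included 0 (-0.41 to 2.69). In the list of 24 antioxidant genes 1 was 2-fold higher and 1 lower, with a median of 0.02.

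The 39 lower genes included responders to glucocorticoid. Tsc22d3, which encodes the glucocorticoid-induced leucine zipper protein, went from 189 to 64.7 CPM (-1.55, -1.80 to -1.29), with -1.18 within subcluster 1 (-1.67 to -0.71). Klf9, a factor induced by the same hormone, went from 299 to 138 CPM (-1.12, -1.31 to -0.94), with -1.74 within subcluster 1. All GFP+ cells together also went down for both, from 119 to 76.9 CPM and from 418 to 199 CPM. The 13 listed glucocorticoid-responsive and clock genes with a ratio did not hold both, since 0 were 2-fold higher and 1 lower (median -0.34). The counting interval lay below 0 in 7 of the 13 and above 0 in 0. It lay below 0 in 8 of 15 immediate early and heat shock genes and in 3 of 3 metallothioneins, and above 0 in 0 of either list. Over all 10463 genes it lay below 0 in 1368 and above 0 in 1111. Fkbp5 went from 78.9 to 53.2 CPM (-0.57) and Zbtb16 from 82.3 to 47.3 CPM (-0.80), both under 2-fold.

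Several signalling genes were lower as well. Nmb, neuromedin B, went from 95.3 to 29.6 CPM (-1.69, -2.07 to -1.32), Ccn3, a matricellular regulator, from 135 to 50.7 CPM (-1.41, -1.70 to -1.11), and Vegfa from 169 to 81.9 CPM (-1.04, -1.29 to -0.80). Their ratios within subcluster 1 were -1.40, -1.79 and -0.93. Dkk2 went from 149.8 to 64.4 CPM (-1.22). Of 12 Wnt genes with a ratio 4 were 2-fold lower and 0 higher (median -0.47). Sfrp2 and Sfrp4, secreted Wnt modulators, were among the leading genes of subcluster 9. That subcluster held 8 of the 82 WT GFP+ and 5 of the 177 Sod1KO GFP+ members. The part of the uneven subclusters in this count was not tested. Kcnb2, a potassium channel gene, went from 161 to 50.7 CPM over all members and turned to a ratio of 0.58 within subcluster 1 (0.06 to 1.10).

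Of the genes that separated the members from other classes, some differed by less than 2-fold between the genotypes and some by more. Among 8 picked after their values were seen, the log2 ratio was 0.01 for Igf1, -0.06 for Lama2, 0.11 for Trf, -0.29 for Col15a1, 0.50 for Apod, 0.52 for Lum, -0.79 for Enpp2 and -0.93 for Cxcl14. It was 2.82 for Fbn2, 2.20 for Col28a1, 1.90 for Reln (0.72 without the 79 cells), -1.22 for Dkk2 and -3.11 for Sfrp2 (found in 9 cells of each library), which also differed from Pi16 fibroblasts or perineurial cells. Of 13 basement membrane genes and 15 immediate early and heat shock genes 0 were 2-fold different in either direction (medians -0.18 and -0.14). Their counting intervals lay below 0 in 7 and 8 genes and above 0 in 2 and 0. Over all 10463 genes the interval lay below 0 in 1368 and above 0 in 1111. The WT GFP- library had 5 members, so its levels rest on 102171 UMIs and 0 UMIs there allow up to 29.4 CPM. Of these 5 cells, 4 lay in subcluster 4 and 1 in subcluster 3, which held 23 and 31 of the 130 Sod1KO GFP- members. The 2 GFP- libraries thus differed in the subclusters compared. Within these limits Klf9 was at 450.2 CPM in WT GFP- and 169 CPM in Sod1KO GFP-, Tsc22d3 at 235 and 82.7 CPM, Timp1 at 9.79 and 167 CPM, and Fbn2 at 0 and 37.0 CPM.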

How the data were processed

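The deposited matrices hold UMI counts per gene and cell for 32285 genes, made by the authors with Cell Ranger and its cell filter. The headers name version 7.1.0, and the study's methods name a later one and both GRCm38 and GRCm39. The labels name mm10 (GRCm38), whose coordinates are used. Removal of ambient RNA and doublets came after the deposited step, so both remain here. The injured group was not analysed here, and the values of a few genes are not reported here. Cells with 200 or fewer genes, or with 10% or more of UMIs from mitochondrial genes, were dropped. Members, comparison classes, 37 gene lists and all tests were chosen with earlier results of these data known. The comparison classes had less than 0.1% tendon and less than 1% myelin UMIs.

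Counts were summed per class and library and tested with edgeR 4.0.16 in R 4.3.3 (quasi-likelihood test, filterByExpr, TMM factors, library as a term), with p-values adjusted by Benjamini-Hochberg over all genes tested. On simulated data recovery was counted at adjusted p under 0.05 in the right direction, without the 2-fold threshold of the calls. The test recovered 57.6%, 57.1% and 49.5% of genes changed 2-fold against perineurial, Pi16 and other Pdgfra cells (11574, 11337 and 11049 genes). It recovered 97.0%, 96.9% and 98.0% of those changed 4-fold, with 3, 10 and 6 false calls. Genotypes had 1 library per sort, so counts were compared as ratios of CPM with exact counting intervals. No GFP feature was among the genes. Named were the rule's genes, listed genes, the 10 called genes of largest fold change in each direction with at least 20 CPM, the 10 genotype ratios of largest size in each direction, and the 10 most variable genes. Where a list's examples were picked from its members, they were chosen after their values were seen. The remaining steps used leidenalg 0.10.2, pandas 2.3.3, matplotlib 3.10.9, numpy 2.4.6, igraph 0.11.9, scikit-learn 1.9.0 and scipy 1.17.1 under Python 3.11.15. Subclusters came from 15 principal components of 1500 variable genes at resolution 0.8. Alternatives were DESeq2 1.42.0, relative log expression factors, no count filter, other marker thresholds, stricter cell filters, thinning, doublet and ambient RNA removal, sums per mouse pool and each library left out.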

Additional observations from a re-analysis of the deposited data

Results flagged for a closer look

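For 6 of the spread genotype genes reported here the Sod1KO over WT ratio of endoneurial fibroblasts pointed one way in GFP+ and the other way in GFP-, with both counting intervals clear of 0. The difference between the sorts was not tested, and WT GFP- had 5 members, 4 in subcluster 4 and 1 in subcluster 3. Sod1KO GFP- had members in all 10 subclusters, so the GFP- ratios do not compare like subclusters. The log2 ratios were 1.53 in GFP+ and -1.35 in GFP- for Pdrg1, 1.5 and -1.42 for Cpe, 1.29 and -1.36 for Adamtsl3, and 1.11 and -1.29 for Igfbp3. They were -1.11 and 2.12 for G0s2, a lipase inhibitor, and -2.44 and 3.20 for Cavin2, a caveolar coat protein.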

How the results depend on the processing

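Of 123 values compared between settings for the shares, counts and variable genes, 85 kept their direction and size class. The genotype difference in share was 2.46 points in GFP+ and 5.79 in GFP- with at least 2 markers, 0.416 and 0.552 with at least 4, and 0.272 and 0.242 when thinned. The WT sort difference was 2.63, 0.776 and 0.301 points under the same settings, the Sod1KO sort difference turned to -0.688 with at least 2 markers, and with more than 500 genes and under 5% mitochondrial UMIs the GFP- and WT sort differences were 2.72 and 2.00. With no count filter 571 higher and 614 lower genes were called against Pi16 fibroblasts and 550 and 881 against other Pdgfra cells. Against Pi16 fibroblasts 654 were lower with at least 4 markers. Against other Pdgfra cells 561 and 937 were called on sums per mouse pool, and 208 and 187 without cells holding markers of another type, a setting added after the values were seen. Leaving out 1 library gave 432 to 998 higher and 334 to 839 lower calls against perineurial cells, 50 to 513 and 17 to 618 against Pi16 fibroblasts, and 99 to 387 and 224 to 561 against other Pdgfra cells. Genes 2-fold different between genotypes numbered 836 higher and 624 lower at a minimum of 10 UMIs, 125 and 90 at 100 UMIs, and 153 and 134 within subcluster 1, a setting that was also added. Of the 10 most variable genes 6 stayed when thinned. The causes were not tested.

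Single genes turned direction as follows. Against perineurial cells with at least 4 markers, Aspn was at -0.18, C3 at -0.53, Cfb at -0.15 and Top2a at -0.52. Without cells holding markers of another type Sema3b was at 0.53 against perineurial cells, and Fabp5 at 0.48 and Pecam1 at 0.37 against other Pdgfra cells. Top2a was at -0.16 against other Pdgfra cells with at least 4 markers. Within subcluster 1 the genotype ratio was -0.23 for Bzw2, -0.44 for Tubb2b, -0.46 for Tfpi2, -0.55 for Klf5, -1.06 for Robo2, 1.88 for Ndrg4 and 0.58 for Kcnb2. The counting interval of Klf5 there, given above, included 0, and apart from Kcnb2 no interval is given for the others. Klf5, Robo2 and Ndrg4 were not among the 54 genes whose ratio was compared between settings within subcluster 1, so their turns are uncertain.

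No paired analysis was possible because the genotype and sort groups have 1 library each and so share fewer than 2 replicate numbers. The class comparison has library as a term, and the sorts were not tested against each other within mouse pools. Mice were pooled before sorting, so libraries of a genotype share animals and spread between mice was not measured. The members are deeper than other cells and rare in WT GFP-, where 5 cells set every level. Depth limits a share based on several detected markers, and at 3000 UMIs the GFP- difference was not distinguishable from 0.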
